A study of Homo sapiens with 29 samples.

Results

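Metallothionein messages were followed over a range of doses of N-OH-PhIP in BEAS-2B cells, together with MTF1, the transcription factor that switches these genes on, and SLC30A1, the zinc exporter that the same factor controls. The probe sets were taken by gene symbol from the array's annotation table: every probe set with the single symbol MT1E, MT1F, MT1G, MT1H, MT1M, MT1X, MT2A, MTF1 or SLC30A1 was kept. These are 9 of the 19775 genes that the table names alone. That gave 17 of the 54675 probe sets on the array, 11 for the 7 metallothionein genes and 3 each for MTF1 and SLC30A1. A further 0 probe sets carried one of these symbols beside another gene's. BEAS-2B is a line of human bronchial epithelial cells immortalised with viral genes, so all cultures come from a single line. N-OH-PhIP is the N-hydroxy form of PhIP, a mutagenic amine made when meat is cooked and when tobacco burns, and once activated it binds DNA. The 10 groups were DMSO, the solvent, and N-OH-PhIP at 0.1, 0.5, 1, 5, 10, 50, 100, 500 and 1000 nM, all exposed for 24 h. Every culture, control or exposed, had 1% DMSO in the medium. Each group had 3 arrays from separate cultures per the labels, except 0.5 nM, which had 2, for 29 arrays in all. Doses were taken from the sample titles, which go down to 0.1 nM, although 0.5 nM is named elsewhere in the study's description as its lowest.

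Metallothioneins are small cysteine-rich proteins that bind zinc and copper in clusters of thiolates and take up cadmium and other metals, and they also react with oxidants. When free zinc rises, MTF1 binds it through its zinc fingers, enters the nucleus and binds metal response elements in the promoters of the metallothionein genes and of SLC30A1. Glucocorticoids induce MT2A as well. The family lies in a row on chromosome 16: in the RefSeq gene table (GRCh38.p14), 14 of the 15 entries from MT2A to MT1X are metallothionein genes or pseudogenes.

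The members with a promoter at hand differed in how many matches to the core of that element it held. The core of the metal response element was searched as TGCACNC and TGCGCNC on both strands, in the 250 bases before each gene start in the RefSeq promoter table (GRCh38.p14). Matches are in capitals below, and any that overlap would merge into a longer run. MT2A is shown because it changed most at 5 nM among the metallothioneins, MT1X as a neighbour in the cluster, and SLC30A1 because it changed most at the high doses. The windows are chr16:56608334-56608583 on the plus strand for MT2A, chr16:56682220-56682469 on the plus strand for MT1X and chr1:211579162-211579411 on the minus strand for SLC30A1, each written 5′ to 3′ along its gene.
MT2A: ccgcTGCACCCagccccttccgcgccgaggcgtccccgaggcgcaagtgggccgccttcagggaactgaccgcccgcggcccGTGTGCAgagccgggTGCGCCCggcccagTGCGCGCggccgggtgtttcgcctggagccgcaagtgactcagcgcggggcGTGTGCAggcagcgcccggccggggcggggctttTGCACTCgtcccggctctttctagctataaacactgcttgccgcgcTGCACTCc
MT1X: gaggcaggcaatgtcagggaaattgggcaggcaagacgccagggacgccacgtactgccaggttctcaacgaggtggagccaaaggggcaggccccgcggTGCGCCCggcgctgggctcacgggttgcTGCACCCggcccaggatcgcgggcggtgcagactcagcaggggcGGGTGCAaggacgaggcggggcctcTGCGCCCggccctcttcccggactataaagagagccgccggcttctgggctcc
SLC30A1: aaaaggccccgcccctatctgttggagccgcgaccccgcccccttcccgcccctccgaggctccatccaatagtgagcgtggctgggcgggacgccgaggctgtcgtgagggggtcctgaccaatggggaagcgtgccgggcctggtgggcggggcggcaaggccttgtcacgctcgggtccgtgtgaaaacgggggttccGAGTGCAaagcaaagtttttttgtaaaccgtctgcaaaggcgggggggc

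The MT2A window held 7 matches, 5 on the gene's strand and 2 on the opposite strand, and only 0.0313% of the 35116 promoters in the table had as many or more. MT1X held 4 (0.370% had as many or more), and MT1H, which is not printed, held 8 (0.0171%). The SLC30A1 window had 1 match, on the opposite strand and starting 49 bases before the gene start. A single match was common, since 24.8% of all promoters had at least 1. The MTF1 window had 0 matches. These 5 members are the ones matched in the promoter table. A match is a string of letters, and no binding was measured here.

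Values are intensities on a linear scale, group means are given ± SD, and changes are differences in log2(intensity + 16) ± SE against DMSO unless said otherwise. A difference passed the test at an adjusted p of 0.05 or less in limma, with Benjamini-Hochberg adjustment over the 27307 probe sets above the level minimum, an intensity of about 37.4. The 9 comparisons with DMSO share its 3 arrays and are not independent of each other. The median intensity per array lay between 35.8 and 38.4, and within-group correlations between arrays lay between 0.980 and 0.998. Of the bronchial epithelial markers, 7 of 8 were found by symbol and all 7 were above the minimum, with CDH1, E-cadherin, between 6110 and 7100. Leukocyte and endothelial markers stayed between 6.01 and 30.0 where found, 3 of 5 and 4 of 4, and of 6 fibroblast markers only COL1A1 was above the minimum. Of the 7 epithelial markers 5 rose and 0 fell at 500 nM, beside 45.4% of all tested probe sets called, and 4 rose and 1 fell at 1000 nM, beside 59.9%. COL1A1 went from 601 in DMSO to 1015 at 500 nM and 791 at 1000 nM (0.74 ± 0.10 and 0.39 ± 0.10), and KRT5, a basal cell keratin, fell at 5 nM (-0.64 ± 0.13, limma adjusted p 0.016). The part of these shifts in the results was not tested. The log2 ratio of 3′ to 5′ actin control probe sets fell from 2.21 ± 0.07 in DMSO to 1.67 ± 0.20 at 500 nM and 1.52 ± 0.04 at 1000 nM, while that of GAPDH was 0.14, 0.20 and 0.17. The part of this shift in the results at the high doses was not tested. Deviations of 500 nM replicate 3 and 5 nM replicate 3 from their group means correlated at 0.75 across probe sets, the highest of all pairs from different groups, and results are given without them where a count changes.

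Of the 17 probe sets, 14 were above the minimum and were tested: 9 for the metallothioneins MT1E, MT1F, MT1G, MT1H, MT1X and MT2A, 3 for MTF1 and 2 for SLC30A1. All 9 of the metallothionein probe sets carry the suffix _x_at, which on this array marks probes that can also match transcripts of other genes. How much signal each takes from other family members was not measured, and each value is given under the gene that the annotation names. The annotation shows the same overlap, since 1 of the 2 MT1X probe sets, 204326_x_at, lists an accession that RefSeq gives to MT1L. MT1G was read differently by its probe sets, at 1658 to 2865 for 204745_x_at and at 12.3 to 18.0 for 210472_at. MT1M (217546_at) lay between 19.4 and 30.8 on every array. These dim probe sets and SLC30A1 242716_at were under the minimum, so their only tests come from a fit with no level minimum. In that fit neither MT1M nor MT1G 210472_at passed in a comparison of doses or in the dose trend, with limma adjusted p of at least 0.064.

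SLC30A1, which moves zinc out of the cytosol, rose at the 2 highest doses in both tested probe sets. Whole cultures were measured, so a shift in the mix of cells and a change in RNA per cell cannot be told apart. For 228181_at the DMSO arrays read 805, 829 and 823, the 500 nM arrays 1272, 1449 and 1519, and the 1000 nM arrays 2112, 1926 and 1854. The 3 groups did not overlap. The change was 0.77 ± 0.09 at 500 nM (limma adjusted p 1.6e-07) and 1.24 ± 0.09, a fold of 2.37, at 1000 nM (adjusted p 1.3e-11). In 212907_at the DMSO arrays read 2215, 2341 and 2331, the 500 nM arrays 3840, 3406 and 3755, and the 1000 nM arrays 3549, 3515 and 3457. Every array at the 2 high doses was above every DMSO array, but the high doses overlapped each other. Here the change was 0.67 ± 0.05 at 500 nM (limma adjusted p 1.1e-11) and 0.61 ± 0.05 at 1000 nM (adjusted p 3.0e-11). Of all tested probe sets, 22.2% had every array at 500 nM above every DMSO array and 31.8% at 1000 nM. In 17.8% every array at 1000 nM was above every array at 500 nM. From 500 to 1000 nM 228181_at rose by 0.47 ± 0.09 (limma adjusted p 1.9e-04), while 212907_at differed by -0.06 with a 95% interval of -0.16 to 0.03. The dim probe set 242716_at averaged 25.4 ± 5.84 in DMSO, 32.7 ± 5.54 at 500 nM and 47.1 ± 9.34 at 1000 nM, and with no level minimum its change was 0.61 ± 0.11 at 1000 nM against DMSO (limma adjusted p 5.8e-05) and 0.37 ± 0.11 at 1000 against 500 nM (adjusted p 0.014).

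At lower doses the SLC30A1 probe sets did not follow dose in order. The level of 228181_at was 922 ± 72.0 at 0.1 nM and 1141 ± 120 at 0.5 nM, against 807 ± 42.7 in the 1 nM arrays and 751 ± 44.2 in the 5 nM arrays. It was 1155 ± 87.1 at 10 nM and then 1038 ± 141 at 50 nM and 1003 ± 108 at 100 nM. Ordered by level, only 3 of the 9 pairs of neighbouring groups had arrays that did not overlap: DMSO and 0.1 nM, 10 and 500 nM, and 500 and 1000 nM. At 10 nM the arrays read 1058, 1228 and 1177 and the probe set rose by 0.48 ± 0.09 (limma adjusted p 0.029). That call ended without DMSO replicate 1 or 2 and without 10 nM replicate 2 or 3, with adjusted p from 0.062 to 0.21. In 212907_at the 7 doses up to 100 nM averaged between 2422 ± 120 at 5 nM and 2607 ± 32.6 at 10 nM. In each of them but 0.1 nM every array was above every DMSO array, but none of these 7 differences passed the test. All are set against the same DMSO arrays. Of all tested probe sets, 10.3% had every array at 5 nM above every DMSO array and 12.8% at 10 nM. Such a share was not computed for the other doses up to 100 nM. Per 10-fold dose over the 26 treated arrays the slopes were 0.22 ± 0.04 for 228181_at (limma adjusted p 1.9e-04) and 0.13 ± 0.02 for 212907_at (adjusted p 2.6e-05).

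**Figure D1:**
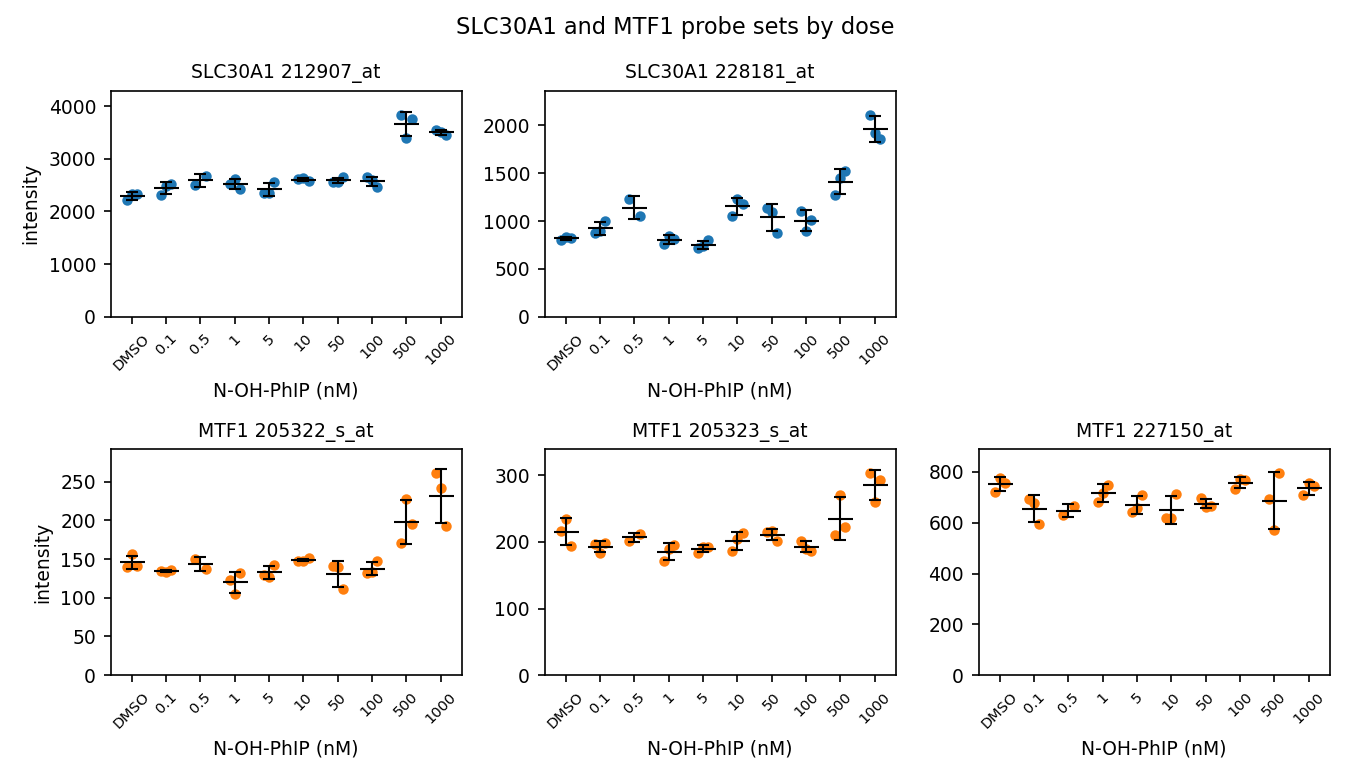
Intensity (linear, from 0) of the tested SLC30A1 (blue) and MTF1 (orange) probe sets against dose group, 1 point per array with the group mean and SD in black. Both SLC30A1 probe sets lie above all other groups at 500 and 1000 nM, and MTF1 205322_s_at and 205323_s_at are highest at 1000 nM while 227150_at is not.

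MTF1 itself rose at the high doses in some of its probe sets. MTF1 205322_s_at read 140, 156 and 141 in DMSO, 171, 228 and 195 at 500 nM, and 261, 242 and 193 at 1000 nM. Both high-dose groups were above all DMSO arrays and overlapped each other. It rose by 0.40 ± 0.11 at 500 nM (limma adjusted p 0.0035) and by 0.61 ± 0.11 at 1000 nM (adjusted p 2.1e-05). Every array lay above every DMSO array in 22.2% of all tested probe sets at 500 nM and 31.8% at 1000 nM. MTF1 205323_s_at rose by 0.38 ± 0.09 at 1000 nM, from 215 ± 20.6 to 285 ± 22.5 (limma adjusted p 5.2e-04), and its change at 500 nM was 0.11 (95% interval -0.07 to 0.29). The third, 227150_at, was at 752 ± 27.4 in DMSO and 736 ± 25.6 at 1000 nM, a difference of -0.03 (-0.20 to 0.14). The probe sets of this gene thus gave different answers, and the positions of their probes were not used here. Over the 26 treated arrays the slopes per 10-fold dose were 0.15 ± 0.03 and 0.10 ± 0.02 for the 2 that rose (limma adjusted p 3.9e-04 and 8.1e-04), and 0.03 ± 0.02 for 227150_at (adjusted p 0.13).

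The metallothioneins showed no common rise at the doses where SLC30A1 rose. At 1000 nM, 8 of the 14 tested probe sets of the set passed the test, 6 higher and 2 lower, beside 59.9% of all tested probe sets (28.9% higher and 31.0% lower), so the share called was near the background. Of the 9 for metallothioneins 2 were higher and 2 lower, with a median change of 0.08 and a range of -0.42 to 0.22 (the median over all tested probe sets was -0.01). At 500 nM, 5 of 14 passed, 4 higher and 1 lower, beside 45.4% of all (23.1% higher and 22.3% lower), and of the metallothioneins 1 was higher and 1 lower with a median of 0.09. Without 500 nM replicate 3 that count became 9, 7 higher and 2 lower. Between 1000 and 500 nM, 5 of 14 passed, 2 higher (an SLC30A1 and an MTF1 probe set) and 3 lower (both MT1F probe sets and MT1E 212859_x_at), beside 43.3% of all (17.7% higher and 25.6% lower). That count was 3 without 500 nM replicate 1, 2 without 1000 nM replicate 1 and 7 without 500 nM replicate 3.

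MT2A, the most widely expressed of the human isoforms, read 5966, 6079 and 6036 in DMSO, 6857, 6398 and 5987 at 500 nM and 6031, 6647 and 6186 at 1000 nM. The groups overlapped. Its difference at 1000 nM was 0.06 with a 95% interval of -0.07 to 0.19, and at 500 nM it was 0.09 (-0.04 to 0.21), so an increase as large as that of SLC30A1 lay outside both intervals. MT1G 204745_x_at rose by 0.22 ± 0.07 at 1000 nM, from 2136 ± 102 to 2492 ± 141 (limma adjusted p 0.0082), a call that ended without 1000 nM replicate 2 (adjusted p 0.053). MT1E 212859_x_at rose at 500 nM (0.18 ± 0.05, limma adjusted p 0.0051). There MT1E 216336_x_at differed by 0.14 (limma adjusted p 0.059) and did not pass. Its 500 nM arrays were all above every DMSO array, which held for 22.2% of all tested probe sets. At 1000 nM 216336_x_at rose (0.15 ± 0.06, limma adjusted p 0.031) and 212859_x_at differed by 0.04 (adjusted p 0.49). The rise of 216336_x_at was lost without DMSO replicate 3 or 1000 nM replicate 2 (adjusted p 0.12 and 0.15), with quantile normalization (0.060) and without the mean-variance trend (0.051). MT1H and both MT1X probe sets did not pass at either dose, with differences from -0.05 to 0.12. In the dose trend 7 of 14 passed, 5 higher and 2 lower, beside 59.5% of all (30.6% higher and 28.9% lower), and MT2A had a slope of 0.06 ± 0.02 per 10-fold dose (limma adjusted p 0.041), a call lost in 14 of 37 alternatives, with adjusted p up to 0.078. That trend count was 6 without 500 nM replicate 3.

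**Figure D2:**
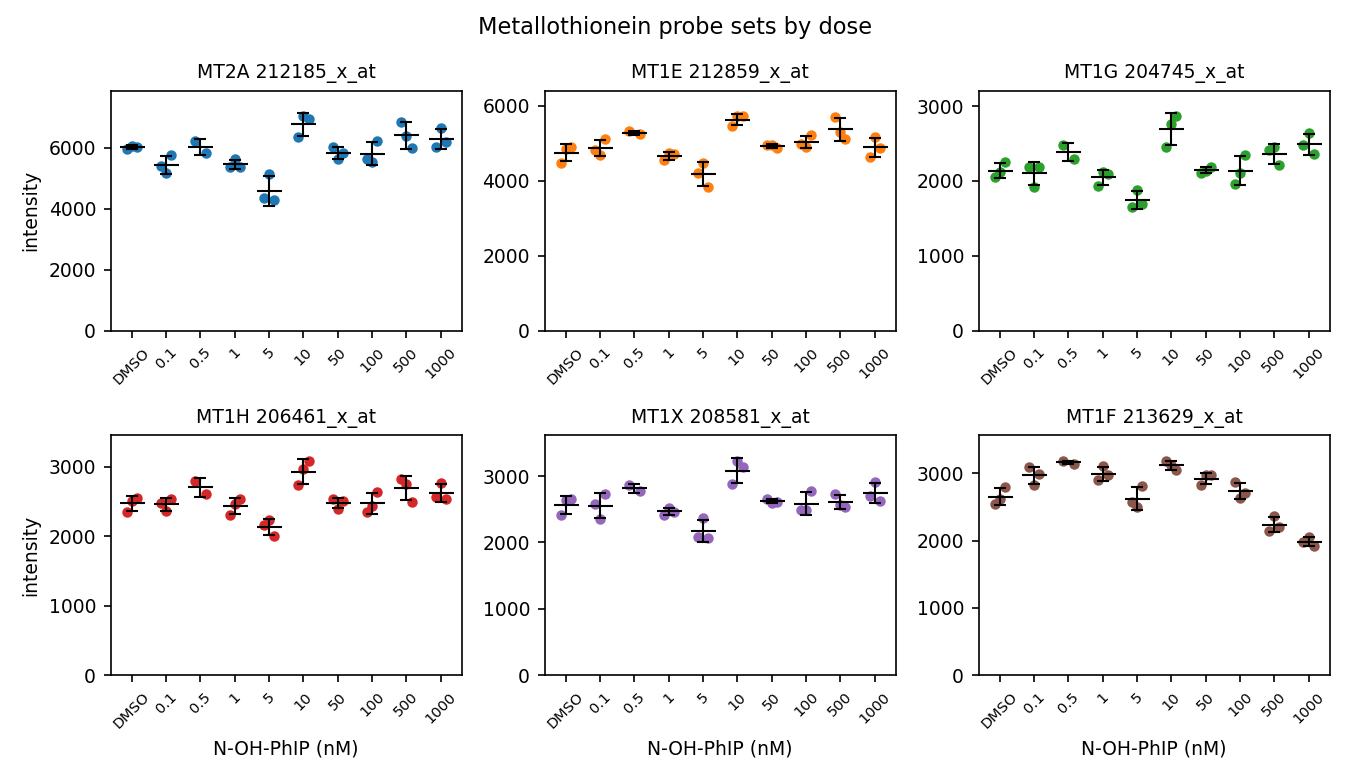
Intensity (linear, from 0) of 1 tested probe set for each of 6 metallothionein genes against dose group, 1 point per array with the group mean and SD in black. MT2A, MT1E, MT1G, MT1H and MT1X are lowest at 5 nM and highest at 10 nM, and MT1F 213629_x_at is lowest at 500 and 1000 nM.

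MT1F was the metallothionein that fell at the high doses. Its probe set 213629_x_at read 2549, 2615 and 2789 in DMSO, 2141, 2364 and 2208 at 500 nM, and 1984, 2050 and 1914 at 1000 nM. The 3 groups did not overlap, and each step was downward. The change was -0.24 ± 0.05 at 500 nM (limma adjusted p 2.2e-04) and -0.42 ± 0.05 at 1000 nM (adjusted p 5.5e-08), and the step from 500 to 1000 nM was -0.17 ± 0.05 (adjusted p 0.0059). Of all tested probe sets, 21.4% had every array at 500 nM below every DMSO array and 33.3% at 1000 nM. In 23.6% every array at 1000 nM was below every array at 500 nM. The other MT1F probe set, 217165_x_at, read 2294, 2272 and 2431 in DMSO, 2448, 2400 and 2015 at 500 nM, and 1975, 2152 and 2020 at 1000 nM. Only its 1000 nM arrays lay below all DMSO arrays, and it fell by 0.19 ± 0.06 at 1000 nM (change -0.19, limma adjusted p 0.0070), with -0.03 (-0.15 to 0.09) at 500 nM. Below 100 nM, levels of 213629_x_at were above DMSO in most groups: 2969 ± 131 at 0.1 nM, 3162 ± 27.0 at 0.5 nM and 2989 ± 104 for the 1 nM group, then 3120 ± 67.6 at 10 nM and 2922 ± 81.3 at 50 nM. All arrays of these 5 groups were above every DMSO array, with the same DMSO arrays each time. At 10 nM that held for 12.8% of all tested probe sets, and no such share was computed for the others of these doses. Of the 5 differences only that at 10 nM passed the test, at 0.23 ± 0.05 (limma adjusted p 0.038). The slopes per 10-fold dose were -0.13 ± 0.02 (limma adjusted p 2.7e-05) and -0.05 ± 0.02 (adjusted p 0.037), the second lost in 8 of 37 alternatives, among them without any 1 of the 3 arrays at 1000 nM (adjusted p up to 0.096).

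Set against the mean of the 7 probe sets of the other metallothioneins on the same array, MT1F lay lower at the high doses than in DMSO. Relative to DMSO, the log2 difference of 213629_x_at from that mean was between -0.46 and -0.25 on the 500 nM arrays and between -0.55 and -0.48 on the 1000 nM arrays. At 1 nM it lay between 0.19 and 0.23, and at 5 nM it spread from 0.04 to 0.42. For 217165_x_at the same difference was between -0.31 and -0.27 at 1000 nM and between -0.24 and -0.04 at 500 nM. This difference was chosen after its values were seen and was not tested. Such a within-array difference shows unequal change and does not say which side moved.

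**Figure D3:**
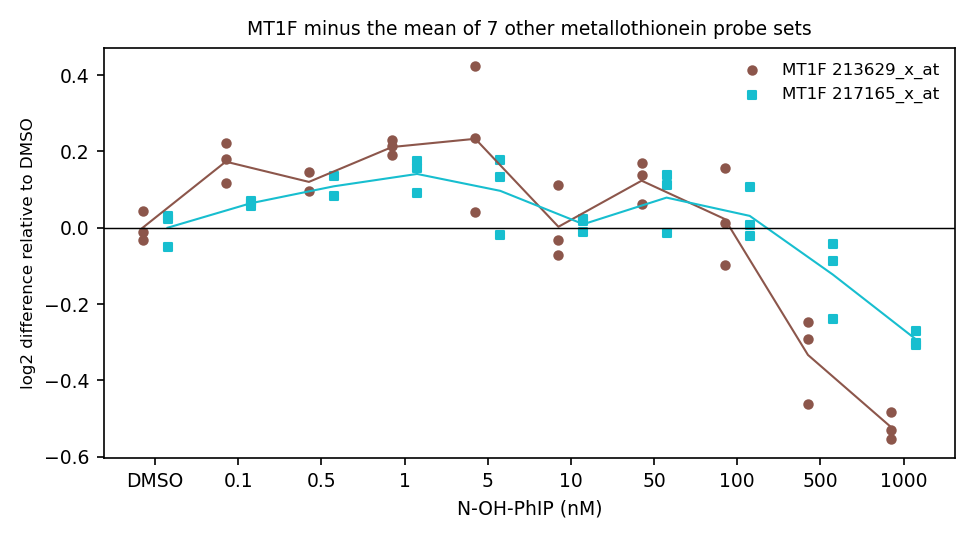
Log2 difference between each MT1F probe set and the mean of 7 probe sets of MT1E, MT1G, MT1H, MT1X and MT2A, set to a mean of 0 in DMSO, with 1 point per array and lines through the group means. Both probe sets lie below 0 on every array at 500 and 1000 nM, and 213629_x_at reaches -0.55.

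The metallothioneins that passed the test at 5 nM were lower than DMSO, and those that passed at 10 nM were higher. Only MT1G 204745_x_at passed at both doses. MT2A read 4340, 5161 and 4287 at 5 nM and 6347, 7043 and 6940 at 10 nM, with DMSO arrays between 5966 and 6079. The 3 groups did not overlap. MT2A fell by 0.39 ± 0.06 at 5 nM (change -0.39, a fold of 0.761, limma adjusted p 0.0011), and its 10 nM difference of 0.17 ± 0.06 did not pass (adjusted p 0.23). At 5 nM, 3 of the 14 tested probe sets passed, all lower, beside 1.11% of all tested probe sets in either direction and 0.769% lower. They were MT2A, MT1G 204745_x_at (-0.29 ± 0.07, limma adjusted p 0.035) and MT1X 208581_x_at (-0.24 ± 0.06, adjusted p 0.046). The median change of the 9 for metallothioneins was -0.21, beside 0.01 over all. Only MT2A was still called without DMSO replicate 2 or 3 and without 5 nM replicate 1 or 3, when the count became 1, and the count became 6 without 500 nM replicate 2 or 3 or 5 nM replicate 2. With 5 nM replicate 3 and 500 nM replicate 3 both left out it was 1, MT2A at -0.35 (limma adjusted p 0.0062).

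At 10 nM, 4 of 14 passed, all higher, beside 0.242% of all in either direction and 0.157% higher. Besides SLC30A1 228181_at they were MT1G 204745_x_at (0.33 ± 0.07), MT1E 212859_x_at (0.24 ± 0.05) and MT1F 213629_x_at (0.23 ± 0.05), with limma adjusted p from 0.036 to 0.038. MT1G went from 2136 ± 102 in DMSO to 1743 ± 118 at 5 nM and 2694 ± 215 at 10 nM. The median of the 9 metallothionein probe sets was 0.24, beside 0.02 over all. This count rests on single arrays: it was 0 without DMSO replicate 1 or 2 or 10 nM replicate 2 or 3, it was 2 without 50 nM replicate 2, 10 nM replicate 1, 1 nM replicate 3 or 0.1 nM replicate 3, and it became 9 without 500 nM replicate 2, 7 without 500 nM replicate 3 and 8 without 500 nM replicate 3 and 5 nM replicate 3 together.

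Between these neighbouring doses the separation was complete. In all 9 metallothionein probe sets every array at 10 nM was above every array at 5 nM, which held for 15.6% of all tested probe sets. Every array at 10 nM was also above every DMSO array in all 9 (12.8% of all), and every array at 5 nM was below every DMSO array in 8 of 9 (8.60%), the exception being MT1F 213629_x_at. The comparison of 10 with 5 nM was chosen after the values were seen and has no test, and probe sets that share target sequence are not independent of each other. In the comparison of the lower doses (0.1 to 5 nM) with the middle doses (10 to 100 nM), which uses no DMSO array, 6 of 14 passed, all lower at the lower doses, beside 10.4% of all in either direction and 6.63% lower. They were MT2A (-0.19 ± 0.03, limma adjusted p 5.1e-04), MT1E 212859_x_at, MT1G 204745_x_at, MT1H, MT1X 208581_x_at and SLC30A1 228181_at (-0.24 ± 0.05, adjusted p 0.0028). The count was 7 without 500 nM replicate 3 and 5 without 5 nM replicate 3. The MT1F probe sets differed by 0.00 and -0.07, those of MTF1 by -0.06 to -0.04, and none of these passed. This comparison includes the 5 and 10 nM groups picked above. The mean centred log2 level of the tested metallothionein probe sets was -0.24 at 5 nM and 0.20 at 10 nM. It was -0.016, 0.127 and -0.032 at 0.1, 0.5 and 1 nM, and 0.007 and -0.005 at 50 and 100 nM. The 0.5 nM group thus lay above the 50 and 100 nM groups. Other genes were lower in the same comparison: 5 of the 7 epithelial markers, KRT5 (-0.43), KRT7 (-0.33), KRT8 (-0.31), KRT18 (-0.17) and KRT19 (-0.32), passed as lower and 0 as higher. The log2 actin ratio was also higher in all of the lower than in all of the middle dose groups. It was 2.313 ± 0.082, 2.345 ± 0.145, 2.518 ± 0.101 and 2.343 ± 0.137 at 0.1, 0.5, 1 and 5 nM. At 10, 50 and 100 nM it was 2.174 ± 0.072, 2.164 ± 0.081 and 2.167 ± 0.108. The part of these shifts in the difference was not tested.

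**Figure D4:**
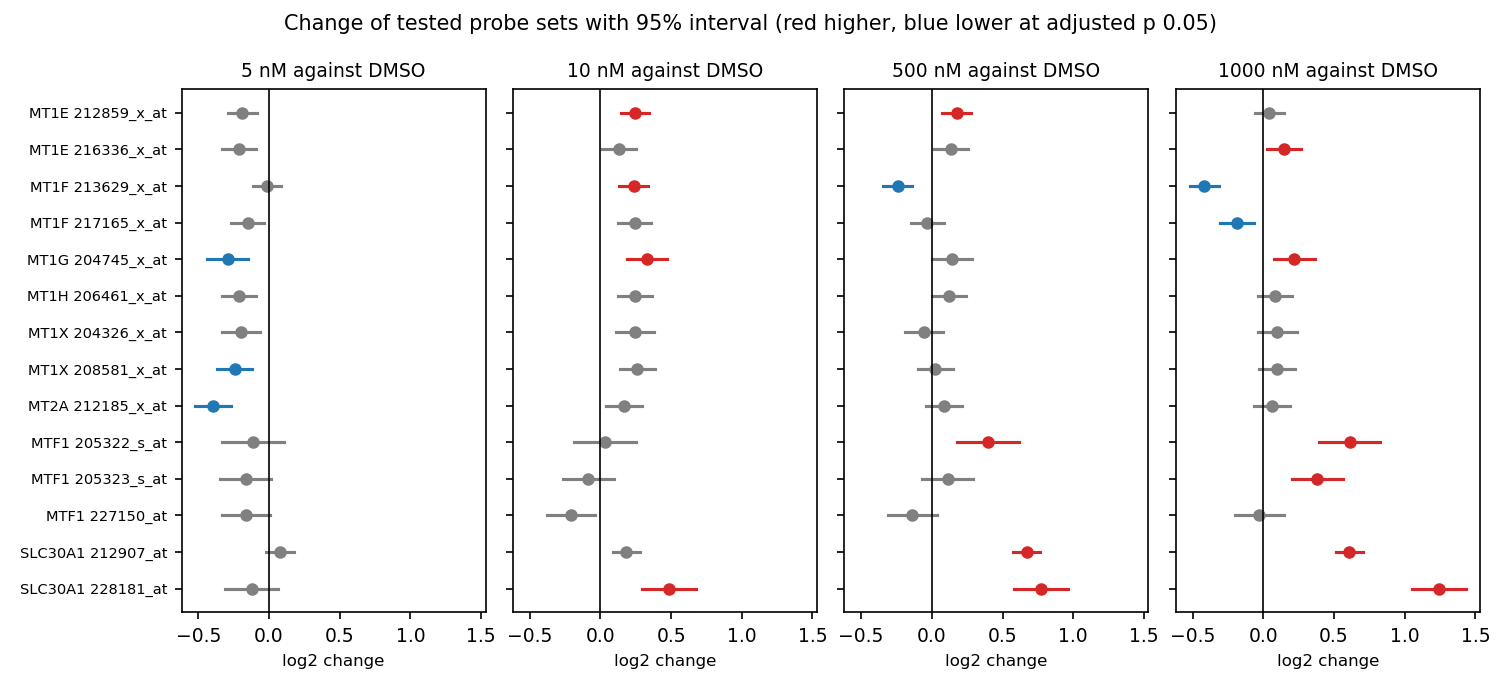
Log2 change against DMSO with its 95% interval for the 14 tested probe sets at 5, 10, 500 and 1000 nM, red where higher and blue where lower at an adjusted p of 0.05. Metallothionein points lie at or left of 0 at 5 nM and right of 0 at 10 nM, and SLC30A1 lies farthest right at 500 and 1000 nM, at up to 1.24.

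The remaining doses gave no calls. At 0.1, 0.5, 1, 50 and 100 nM, 0 of the 14 probe sets passed the limma test, beside 0.597%, 0.0439%, 0.780%, 0.264% and 2.90% of all, and 3, 8, 5, 3 and 2 of 14 had an unadjusted p under 0.05, beside 12.4%, 10.7%, 12.9%, 8.84% and 15.3% of all tested probe sets. At 0.5 nM, with only 2 arrays, the metallothionein median was 0.16, and the count called became 3 without 500 nM replicate 3 and 1 without 500 nM replicate 2. At 100 nM it became 1 without 500 nM replicate 2, 500 nM replicate 3 or 5 nM replicate 3, and at 1 nM it became 1 with 500 nM replicate 3 and 5 nM replicate 3 both left out. The metallothionein differences lay between -0.05 and 0.14 at 50 nM and between -0.06 and 0.09 at 100 nM, with MT2A lowest at both. SLC30A1 228181_at differed by 0.33 and 0.28 there and 212907_at by 0.17 and 0.16, and the MTF1 probe sets by -0.15 to 0.01. MT2A was below every DMSO array at 0.1 nM (5449 ± 303) and 1 nM (5457 ± 149), which did not pass. Its DMSO arrays lay close together, between 5966 and 6079. The share of all tested probe sets so separated was not computed at these doses. Over the 10 groups at once, 13 of 14 differed in the moderated F test of limma, all but MTF1 227150_at, beside 68.3% of all tested probe sets. All 9 for metallothioneins were among them, with adjusted p from 3.6e-11 for MT1F 213629_x_at to 1.8e-04 for MT1X 204326_x_at. The spread between the highest and lowest group mean stayed small, from 1.29-fold for MT1E 216336_x_at to 1.59-fold for MT1F 213629_x_at among metallothioneins, against 2.61-fold for SLC30A1 228181_at.

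The metallothionein probe sets varied together from array to array, with MT1F 213629_x_at apart. Over the 29 arrays the 21 pairs among MT1E, MT1G, MT1H, MT1X and MT2A correlated at 0.66 to 0.95, median 0.88, and after removal of group means at 0.42 to 0.89, median 0.76. MT1F 213629_x_at correlated with these 7 probe sets at -0.17 to 0.27, and MT1F 217165_x_at at 0.35 to 0.62. After removal of group means the ranges were -0.25 to 0.16 and 0.31 to 0.66, so that of 217165_x_at overlapped the range of the 21 pairs. The MT1F probe sets correlated with each other at 0.78, and at 0.32 after that removal. Arrays, and for the _x_at probe sets also target sequence, are shared by the values behind these correlations. A mean metallothionein profile over the 10 group means was taken from all 9 tested probe sets, both of MT1F included. Out of 12165 genes of other families, those nearest to it were AP2S1, a clathrin adaptor subunit (r = 0.908), and GRIN2C, a glutamate receptor subunit (0.886). DMAC2 (0.880), SCARF2 (0.872) and TXNDC11 (0.868) came next. Over the 29 single arrays the r of these genes was lower, between 0.417 and 0.605. AP2S1 averaged 1930 in DMSO, 1790 at 5 nM and 2030 at 10 nM.

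Other metallothioneins were few on the array. Of a further 8 named, 3 were found and tested, and MT1HL1, a copy outside the chromosome 16 cluster, rose by 0.16 ± 0.07 at 500 nM (limma adjusted p 0.049), on another _x_at probe set. It was lower in the lower than in the middle doses (-0.15 ± 0.04, limma adjusted p 0.0081), and its differences of -0.25 at 5 nM and 0.26 at 10 nM did not pass. MT3 and MT4, isoforms best known from brain and squamous epithelium, stayed at 54.2 and 40.3 in DMSO and did not pass at 500 or 1000 nM.

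Other zinc transporters were called in both directions at the high doses, where 59.9% of all tested probe sets were called at 1000 nM and 45.4% at 500 nM, and the shares in the importer list were at or below these. Of 7 tested further exporters 2 rose and 4 fell at 1000 nM, with a median of -0.12, and 0 rose and 4 fell at 500 nM. SLC30A6, which loads the secretory pathway, fell by 0.66 (change -0.66 ± 0.08) from 1583 to 999.7, SLC30A4 by 0.45 (change -0.45 ± 0.06) and SLC30A9 by 0.34 (change -0.34 ± 0.04) at 1000 nM, and SLC30A2 rose by 0.60 ± 0.15 from 52.4 to 87.3 (limma adjusted p for these 4 at most 0.0011). Of 12 tested importers of the SLC39 family 6 rose and 1 fell at 1000 nM, with a median of 0.16, and 2 rose and 1 fell at 500 nM. SLC39A10, a plasma membrane importer that MTF1 is known to repress, rose by 0.75 ± 0.11 from 200.6 to 350.8, and SLC39A6 rose by 0.44 ± 0.04 and SLC39A4 by 0.35 ± 0.11. SLC39A11 fell from 1076 in DMSO to 143.4 at 500 nM and 314.6 at 1000 nM (changes of -2.79 ± 0.09 and -1.72 ± 0.09, limma adjusted p 3.4e-17 and 4.1e-14).

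Copper genes handle a metal that metallothioneins also bind. All 12 tested members were called at 1000 nM, 10 higher and 2 lower, with a median of 0.53, beside 59.9% of all tested probe sets. At 500 nM 7 of 12 were called, 6 higher and 1 lower, beside 45.4% of all. STEAP4, a metal reductase, went from 46.5 in DMSO to 262.4 at 500 nM and 158.9 at 1000 nM (2.16 ± 0.16 and 1.47 ± 0.16). SLC31A2, a copper transporter of endosomes, rose by 1.07 ± 0.06 at 500 nM and 0.72 ± 0.06 at 1000 nM, and STEAP3 rose by 0.78 ± 0.12 at 1000 nM. The copper-exporting pump ATP7B fell from 243.5 to 108.0 at 1000 nM (-1.07 ± 0.11, limma adjusted p 8.0e-09).

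Genes of other pathways that can induce metallothioneins were also mixed. Of 6 tested glucocorticoid-responsive genes 4 rose and 2 fell at 1000 nM. Among those that rose, SGK1 was at 3.13 ± 0.13, CRISPLD2 at 2.36 ± 0.12 and DUSP1 at 0.31 ± 0.12. TSC22D3 rose at 1000 nM (0.14 ± 0.06, limma adjusted p 0.041) and fell at 500 nM (-0.27 ± 0.06, adjusted p 5.4e-04). KLF9 (-0.41 ± 0.14) and FKBP5 (-0.23 ± 0.04) fell at 1000 nM. DUSP1 changed more at 500 nM, where it rose by 0.97 ± 0.12 (limma adjusted p 1.6e-07). Of 8 tested NRF2 antioxidant genes 5 rose and 1 fell at 1000 nM, with SRXN1, a sulfiredoxin, at 0.86 ± 0.07, OSGIN1 at 0.83 ± 0.11 and HMOX1, heme oxygenase, at 0.80 ± 0.14, and SLC7A11, the cystine importer, at -0.86 ± 0.06. At 500 nM the counts were 3 higher and 2 lower of 6 for the first list and 4 higher and 3 lower of 8 for the second, and the share of all tested probe sets called was 59.9% at 1000 nM and 45.4% at 500 nM. At 5 nM, SGK1 (-0.55 ± 0.13, limma adjusted p 0.035) and NQO1, a quinone reductase (-0.18 ± 0.04, adjusted p 0.036), fell, and at 10 nM the smallest limma adjusted p in these lists was 0.29, for DUSP1. In the lower against the middle doses 3 of the 6, DUSP1, SGK1 and CRISPLD2, and 2 of the 8, NQO1 and SRXN1, were lower and 0 were higher. Of all tested probe sets 10.4% were called in that comparison in either direction and 6.63% were lower. The lists were read gene by gene, each through its brightest tested probe set.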

How the data were processed

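The deposited table holds a linear intensity for each of 54675 probe sets on 29 arrays, normalized by the authors with a method not given in the sources used here. Per the labels' protocols, cDNA was made and amplified with a NuGEN Ovation kit and carried a biotin label, and the submitters' processing notes name GCOS. Precision is limited by the number of arrays. The 62 control probe sets were left out, values were taken as log2(intensity + 16), and the 27307 probe sets at or above the median mean log2 value of 5.74 were tested with R 4.3.3 and limma 3.58.1: 1 mean per group, two-sided, with a trend of variance on mean level and 19 residual degrees of freedom. The offset shrinks changes of dim probe sets, and detection calls were not used. The dose trend was the slope on log10 of dose in the 26 exposed arrays. Gene identifiers of all 17 probe sets matched RefSeq. The genes followed, the lists and the rules were chosen with earlier results of these data known. All 9 genes were followed in every comparison, by single values or by ranges over probe sets. From each further list up to 4 members of largest change that passed at 500 or 1000 nM were named, and the 5 genes most like the mean metallothionein profile over group means. FKBP5, TSC22D3, MT3, MT4 and NQO1 were named beyond that rule, as were cell type markers. Code was tested on simulated data. Same-numbered replicates were checked as pairs: their deviations correlated at -0.516 to 0.746, and 10 of 29 arrays correlated best with their own number, so numbers were not taken as pairs.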

Additional observations from a re-analysis of the deposited data

How the results depend on the processing

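Under the 38 alternatives that refit or rescale the data the rise of SLC30A1 in both tested probe sets at 500 and 1000 nM and the fall of MT1F 213629_x_at at both doses were called each time, but a minimum change of 1.5-fold, given with the counts, ends the MT1F calls. At 1000 nM the changes of SLC30A1 228181_at ran from 1.19 to 1.28 and of MT1F 213629_x_at from -0.44 to -0.38. MT2A at 5 nM ran from -0.48 to -0.35 and lost its call with 5 nM and DMSO alone in the fit (limma adjusted p 0.070) and under that minimum. Of 2636 values of single probe sets under an alternative, 2497 kept their direction and side of the threshold, 94 lost a call, 45 gained one and 0 reversed.

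Counts of the 14 probe sets called moved as follows. At 5 nM (3 called) the count was 5 with quantile normalization, 6 in the upper 25% of mean level, 1 with no level filter, 1 without the mean-variance trend, and 0 with only the dose and DMSO arrays. At 10 nM (4 called) it was 2 with median centring, 2 with no level filter, 1 without the mean-variance trend and 1 with only the dose and DMSO arrays. With only those arrays it was 3 at 500 nM (5 called) and 1 at 1 nM (0 called). At 0.5 nM (0 called) it was 1 with median centring and 2 in the upper 25%, and at 100 nM (0 called) 1 with median centring. For 1000 against 500 nM (5 called) it was 3 without the mean-variance trend. A minimum change of 1.5-fold left 0 at 5 nM, 0 at 10 nM, 2 for 500 nM, 3 for 1000 nM (8 called), 0 for 1000 against 500 nM and 0 for low against middle doses (6 called). The cause of these moves was not tested.

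With each array left out in turn, the count ran from 0 to 9 at 10 nM, 1 to 6 at 5 nM, 5 to 9 for 500 nM, 6 to 8 for 1000 nM, 0 to 3 for 0.5 nM, 0 to 1 for 100 nM, 2 to 7 for 1000 against 500 nM (2 without 1000 nM replicate 1, 3 without 500 nM replicate 1), 5 to 7 for low against middle doses, 5 to 7 for the trend (7 called) and 13 to 14 for the F test. It stayed at 0 for the 0.1, 1 and 50 nM doses. Without an array of 0.5 nM, its lone sample was assumed to vary like the others. With 5 nM replicate 3 and 500 nM replicate 3 left out together, chosen after seeing the data, the counts were 1 at 5 nM, 8 at 10 nM, 9 for 500 nM, 3 for 0.5 nM, 1 for 1 nM and 1 for 100 nM. With the replicate block the trend had 6 and all other counts were unchanged.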
